A study of Mus musculus with 20 samples.

Results

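Gene expression in whole mouse embryos at embryonic day 8.5 (E8.5) was compared with that at E7.5, the step that leads from gastrulation to the first organs. The comparison took the 3 arrays labelled E8.5 and the 3 labelled E7.5, which are 6 of the 20 arrays of a series that runs over 8 stages to E18.5. Its members are all genes with a probe set annotated with a single gene symbol, 18193 genes, of which 14044 were bright enough on at least 2 arrays to be tested. Both groups are wild type C57BL/6 embryos of mixed sex from specific-pathogen free mice, untreated as far as the labels say, and taken whole apart from the amnion. Each array holds total RNA pooled from several embryos, so the p-values measure the spread between pools of embryos and not between single embryos. That spread was estimated for each gene over all 20 arrays of the 8 stages. It can therefore be smaller or larger than the spread of the 6 arrays compared. RNA was extracted with a kit for lipid-rich tissue, labelled with biotin in a one-cycle reaction and hybridised to Affymetrix Mouse Genome 430 2.0 arrays. The number of embryos in a pool and their somite counts are not given in the sources used here.

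At E7.5 the mouse conceptus is a cup in which epiblast cells pass through the primitive streak to become mesoderm and definitive endoderm. The cup is covered by visceral endoderm and joined to extraembryonic ectoderm and the ectoplacental cone, the precursors of the placenta. By E8.5 somites are forming, the neural folds rise, a heart tube begins to beat, the allantois grows towards the chorion, and blood islands of the yolk sac release primitive red cells.

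The values are MAS5 signals, the brightness of a probe set on a linear scale in arbitrary units, which the authors' processing had brought to a common trimmed mean of 500 on each array. Changes are differences of log2(signal + 25.9) between the stages, E8.5 minus E7.5, given with the standard error of the limma fit after ±. A number alone in parentheses after a gene name is this change, and a gene that rose or fell by a number did so on this scale. Adding 25.9, which is the median of the arrays' 25th percentiles, understates the change of dim genes. A gene was called when its Benjamini-Hochberg adjusted p over the 14044 genes was below 0.05 and its change at least 2-fold, and only such genes are said to have risen or fallen. Arrays of the same stage correlated at 0.977 to 0.985 over the genes tested, and arrays of different stages at 0.934 to 0.938. The ratio of 3' to 5' probe sets of Gapdh, a sign of RNA integrity, was 0.741 to 0.821 at E7.5 and 0.799 to 0.820 at E8.5. The 3 E7.5 pools were not alike in their content of giant cell transcripts, which were highest in replicate 2, as described with the trophoblast genes.

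Between the stages, 881 genes rose and 693 fell, 6.27% and 4.93% of the genes tested and 11.2% together. For 859 of the rises and 673 of the falls no array of one stage reached the range of the other stage. The call itself favours genes whose stages are apart, so these counts are no separate support for it. A change of at least 8-fold was found for 49 of the rises and 35 of the falls. The median change over all genes tested was 0.03. The members of 49 gene lists for lineages, extraembryonic tissues, signalling pathways, metabolism and cell state are described below. The lists hold 844 different tested genes, of which 211 rose and 120 fell. In RNA from whole embryos, fewer cells of a type and less RNA per cell cannot be told apart. Neither can be told apart from less extraembryonic or maternal tissue kept with the embryos at dissection. This applies to every level given here.

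**Figure D1:**
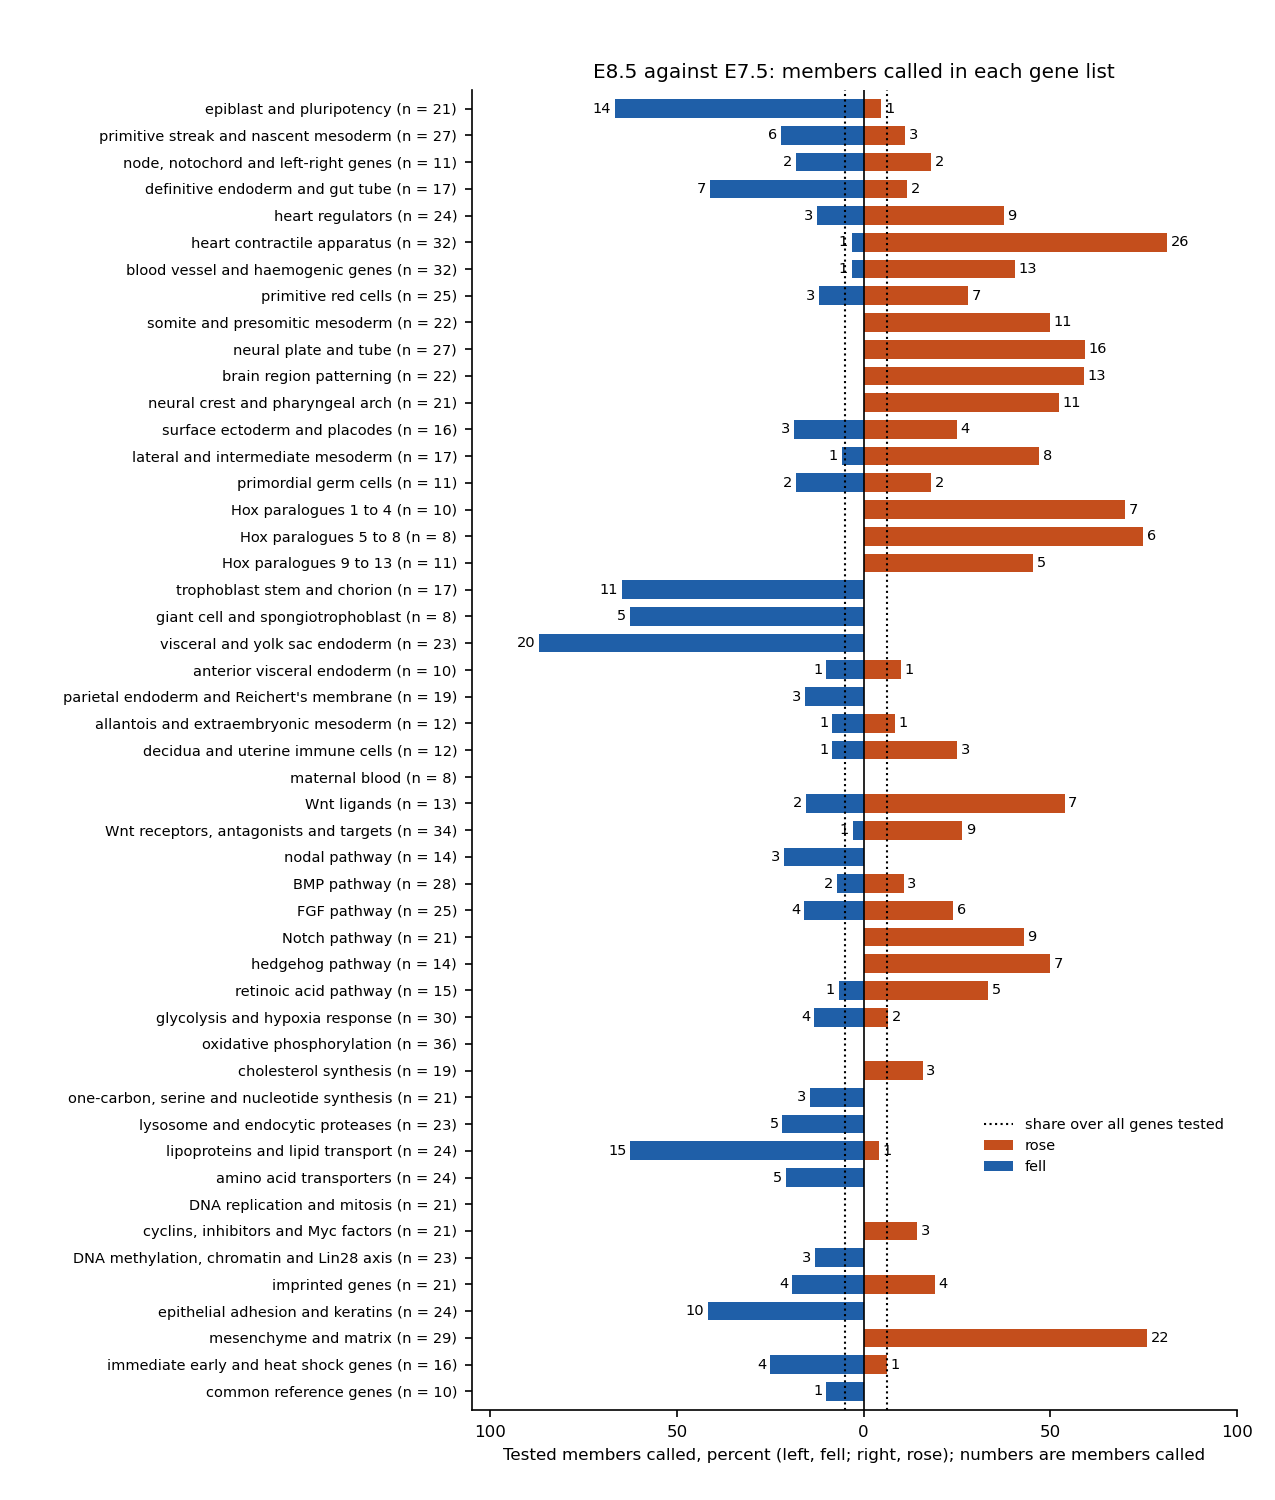
Share of the tested members of each of the 49 gene lists that rose (orange, to the right) or fell (blue, to the left) from E7.5 to E8.5, in percent, with the number of members called beside each bar and the number tested after each name; dotted lines mark the shares over all genes, 6.27% and 4.93%. The largest share of rises lies in the heart contractile list, 26 of 32, and the largest share of falls in the visceral endoderm list, 20 of 23.

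Most tested genes of the pluripotent epiblast fell. Of 21 tested members of the epiblast and pluripotency list, 14 fell and 1 rose, with a median change of -1.92 against 0.03 over all genes. Pou5f1, which encodes the pluripotency factor Oct4, had signals of 3692, 2483 and 2119.7 at E7.5 and 189, 139.9 and 208 at E8.5 (log2 change -3.74 ± 0.38, adjusted p = 1.2e-07). Nanog, a homeodomain factor that holds cells in the pluripotent state, had signals of 238, 305 and 355 at E7.5 and 3.90, 4.74 and 4.57 at E8.5 (log2 change -3.41 ± 0.34, adjusted p = 8.2e-08). L1td1, an RNA-binding protein of pluripotent cells, gave 2771, 2448 and 2233 at E7.5 and 211, 198 and 222 at E8.5 (log2 change -3.41 ± 0.20, adjusted p = 3.1e-11). For all 3 genes the lowest E7.5 array lay far above the highest E8.5 array. The fall also took in Zfp42 (-4.08), Dppa2 (-3.22), Dppa4 (-2.90), Dppa5a (-2.59), the kinase gene Pim2 (-2.53) and Klf4 (-1.92). Utf1, a chromatin factor of pluripotent cells, fell by 4.41. Fgf5, the classical marker of the primed epiblast, was dim even at E7.5, with signals of 68.3, 113 and 134 at E7.5 and 4.06, 22.7 and 19.9 at E8.5 (log2 change -1.66 ± 0.35, adjusted p = 0.00084). Sox2 and Otx2, which serve both the epiblast and the neural plate, did not fall: Sox2 had signals of 1676, 1780.3 and 2218 at E7.5 and 2862, 3901 and 3724 at E8.5 (0.87), under the 2-fold minimum, and Otx2 had 479.6, 499 and 529 at E7.5 and 456, 586 and 647 at E8.5 (log2 change 0.14 ± 0.17, adjusted p = 0.56). The single member that rose was Foxd3 (1.75), a factor of both epiblast and neural crest, and 2 members rose without E8.5 replicate 1. With the probe sets of each gene averaged in place of the brightest one, the call of Fgf5 (-0.96) ended and the change was -1.76 for Utf1.

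Among the primitive streak and nascent mesoderm genes the picture was mixed, with 6 of 27 tested members down, 3 up and a median of -0.25. Mesp1, which marks the first cardiac mesoderm to leave the streak, had signals of 767, 676 and 613 at E7.5 and 127, 96.8 and 94.6 at E8.5 (log2 change -2.43 ± 0.27, adjusted p = 5.2e-07). Eomes, a T-box factor of the early streak and of trophoblast, gave 451, 535 and 669 at E7.5 and 56.3, 34.3 and 10.98 at E8.5 (log2 change -3.33 ± 0.25, adjusted p = 2.2e-09). Foxh1, the DNA-binding partner of Smads in nodal signalling, gave 1383, 1233 and 1486 at E7.5 and 401, 317 and 445 at E8.5 (log2 change -1.76 ± 0.36, adjusted p = 0.0005). In these 3 genes the stages did not overlap. Mixl1 (-1.503), Wnt8a (-1.55) and Lefty2 (-1.89), also genes of the streak, fell, but with a pseudocount 4 times smaller the call of Mixl1 (adjusted p = 0.055) and that of Wnt8a (adjusted p = 0.053) ended. Some genes that keep working in the tail bud and presomitic mesoderm were not called. Tbx6, which specifies paraxial mesoderm, had 737, 689.5 and 818 at E7.5 and 551, 484 and 456 at E8.5 (log2 change -0.57 ± 0.18, adjusted p = 0.018), short of the 2-fold minimum. Cdx2, a caudal homeobox gene, had 2058, 1172 and 1340.5 at E7.5 and 1532, 1192 and 1250.2 at E8.5 (log2 change -0.16 ± 0.31, adjusted p = 0.72), and its arrays overlapped. Its paralogue Cdx4 went the other way, from 187, 210.4 and 182 at E7.5 to 1146, 1073 and 1140.4 at E8.5 (log2 change 2.39 ± 0.26, adjusted p = 3.2e-07). The mean Cdx4 signal was 1119.8 at E8.5 and back to 171 ± 51.4 (SD, n = 3) at E9.5, so E8.5 was the highest of the first 4 stages. The other rises were Fgf8 (1.27), a ligand of the tail bud, and Sp8 (1.06), a zinc finger factor. Under quantile normalization 1 member rose, and without E7.5 replicate 2 there were 4 rises and 8 falls. Under quantile normalization, the calls of Fgf8 (0.94) and Sp8 (0.82) ended. Without E7.5 replicate 3, Sp8 (0.94) no longer passed. With scaling by the 75th percentile, the call of Sp8 (0.99) ended.

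Of 11 tested genes of the node, notochord and left-right axis, 2 rose and 2 fell, with a median of 0.14. Shh, the ligand secreted by the notochord and floor plate, had signals of 309.9, 312 and 388 at E7.5 and 1489, 1554 and 1454 at E8.5 (log2 change 2.08 ± 0.10, adjusted p = 2.5e-12). Foxj1, the master gene of motile cilia in the node, gave 150.2, 97.5 and 159 at E7.5 and 57.0, 30.6 and 31.5 at E8.5 (log2 change -1.30 ± 0.29, adjusted p = 0.0012). Cfc1, a nodal co-receptor needed for left-right asymmetry, gave 743, 706 and 781 at E7.5 and 229, 232 and 329 at E8.5 (log2 change -1.43 ± 0.21, adjusted p = 1.8e-05). The stages were separate for each of these 3 genes. Foxa2, which acts in node, notochord and endoderm, had 896, 748 and 911 at E7.5 and 639.7, 515 and 487 at E8.5 and a change under 2-fold (log2 change -0.62 ± 0.14, adjusted p = 0.0012). Chrd (0.14) and Nog (0.82), secreted BMP antagonists of the node, were not called. The other rise was Nkx6-2, a neural homeobox gene at the 2-fold minimum, and its call ended when any array other than E8.5 replicate 2 was left out (changes of 0.64 to 1.04, adjusted p of 0.059 to 0.2) and in a fit of the 6 arrays alone (adjusted p = 0.084).

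The definitive endoderm and gut tube list lost more members than it gained, with 7 of 17 tested down, 2 up and a median of -0.43. Sox17, a factor of definitive and visceral endoderm represented by a probe set that can cross-hybridise, had signals of 3463, 2963 and 3005 at E7.5 and 652, 659 and 582 at E8.5 (log2 change -2.27 ± 0.11, adjusted p = 2.5e-12), and its other probe set gave -1.91. Cer1, a secreted antagonist from anterior endoderm, fell by 1.90, and Trh, a peptide hormone gene also expressed in early endoderm, fell by 2.00. Nepn, a marker of midgut endoderm, rose from 12.8, 47.6 and 42.3 to 1139, 974 and 899 (log2 change 4.15 ± 0.28, adjusted p = 3.4e-10). Pyy, a gut hormone gene, rose from 58.9, 73.2 and 137 to 307, 462 and 388 (log2 change 1.88 ± 0.32, adjusted p = 8.9e-05). No array of the stages overlapped for Nepn or Pyy. At E9.5 Nepn had fallen back to 218 ± 82.8 (SD, n = 3). Foxa1, a pioneer factor of gut endoderm, had 734, 538 and 583 at E7.5 and 1121, 1075 and 1119 at E8.5 (log2 change 0.82 ± 0.13, adjusted p = 3.8e-05), a clear but less than 2-fold difference. Several of the genes in this list, among them Sox17 and Cer1, are also expressed in visceral endoderm, whose genes fell in these pools as described below. The part of that tissue in the falls of this list was not tested.

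The heart contractile list held the largest share of rises. Of 32 tested genes of the contractile apparatus, 26 rose and 1 fell, with a median of 2.79. Actc1, cardiac alpha-actin, had signals of 294, 323 and 259 at E7.5 and 20456, 18961 and 17288 at E8.5 (log2 change 5.90 ± 0.12, adjusted p = 5e-18). Myl7, the atrial myosin regulatory light chain, already gave 1004, 967 and 931 at E7.5 and reached 13619, 11489 and 12006 at E8.5 (log2 change 3.64 ± 0.11, adjusted p = 1.2e-15). Myh7, the beta myosin heavy chain, gave 26.6, 24.6 and 35.7 at E7.5 and 1254, 1742 and 1356 at E8.5 (log2 change 4.74 ± 0.12, adjusted p = 1.7e-16). The stages were far apart for all 3. Myh6, the alpha myosin heavy chain, had 1.87, 6.07 and 18.4 at E7.5 and 1898, 2433 and 2303 at E8.5 (log2 change 6.03 ± 0.15, adjusted p = 1.6e-16), and the light chain genes Myl4 and Myl2 rose by 4.93 and 4.09. Troponin genes followed, with changes of 4.38 for Tnnt2, 3.91 for Tnni1 and 3.16 for Tnnc1. Csrp3, a Z-disc protein of muscle, rose by 3.43, and Nppa, which encodes atrial natriuretic peptide, rose by 3.05. Ankrd1, a cardiac ankyrin repeat protein that belongs to none of the lists but was among the 15 largest rises, had 2.01, 40.1 and 21.2 at E7.5 and 2341, 2334 and 1957 at E8.5 (log2 change 5.66 ± 0.20, adjusted p = 2e-14). Calcium handling genes were less uniform. Ryr2, the calcium release channel, had 33.0, 34.5 and 28.3 at E7.5 and 82.2, 122 and 102 at E8.5 (log2 change 1.14 ± 0.22, adjusted p = 0.00039), and Pln, phospholamban, rose by 1.30. Atp2a2, the calcium pump of the sarcoplasmic reticulum, had 14226, 9413 and 9033 at E7.5 and 12429, 9429 and 9811 at E8.5 and was not called (log2 change -0.02 ± 0.13, adjusted p = 0.91), while its other probe sets gave changes of 0.43 to 1.59. Sln (-0.08), an inhibitor of that pump, and Casq2 (0.40), which stores calcium, were not called either. The 1 fall was Fabp3, a fatty acid binding protein of heart muscle, with 4272, 4552 and 4776 at E7.5 and 232, 148 and 201 at E8.5 (log2 change -4.39 ± 0.12, adjusted p = 4e-16), and its other probe set gave 0.14, so the probe sets of this gene disagree. When all probe sets of a gene were averaged, the call of Ryr2 (0.76) ended and the change was -2.12 for Fabp3, 3.56 for Myh6, 2.50 for Myl4 and 3.34 for Tnnt2. After quantile normalization, the change was 3.499 for Myl2, 4.28 for Myl4 and 3.76 for Tnnt2.

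Of 24 tested regulators of the heart, 9 rose and 3 fell, with a median of 0.48. Nkx2-5, the homeodomain factor of cardiac progenitors, had 131, 125 and 95.5 at E7.5 and 522, 419 and 429.5 at E8.5 (log2 change 1.76 ± 0.23, adjusted p = 3e-06). Mef2c, a MADS-box factor of muscle, had 116, 152 and 114 at E7.5 and 648, 526 and 651 at E8.5 (log2 change 2.05 ± 0.11, adjusted p = 6.8e-12). Hand2, a basic helix-loop-helix factor of the right ventricle, had 546, 635 and 614 at E7.5 and 1656, 1619 and 1606 at E8.5 (log2 change 1.41 ± 0.09, adjusted p = 1.2e-10). In each of the 3 the stages did not overlap. Tbx5, a T-box factor of the first heart field, was not called, with 63.7, 85.8 and 13.8 at E7.5 and 123, 85.5 and 139.9 at E8.5 (log2 change 0.93 ± 0.37, adjusted p = 0.053). Neither was Tbx20 (0.37), Gata6 (0.16), Isl1 (0.64), the marker of the second heart field, or Smarcd3 (0.11), a chromatin remodelling subunit of cardiac mesoderm. Hand1, which acts in the left ventricle but also in trophoblast giant cells and extraembryonic mesoderm, fell from 756, 1378 and 959.7 to 307, 350.2 and 395 (log2 change -1.45 ± 0.24, adjusted p = 7e-05), and without replicate 2 of E7.5 its change was -1.23. Gata4, shared by heart and visceral endoderm, fell by 1.07. The other fall of the list was Irx4 (-1.06). Its call ended without E7.5 replicate 3 (-1.02), E8.5 replicate 1 (-0.93) or E8.5 replicate 2 (-1.02), with limma adjusted p of 0.054 to 0.071. With quantile normalization, the call of Gata4 (-0.96) ended. Leaving out E8.5 replicate 3 ended the call of Gata4 (-0.999).

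**Figure D2:**
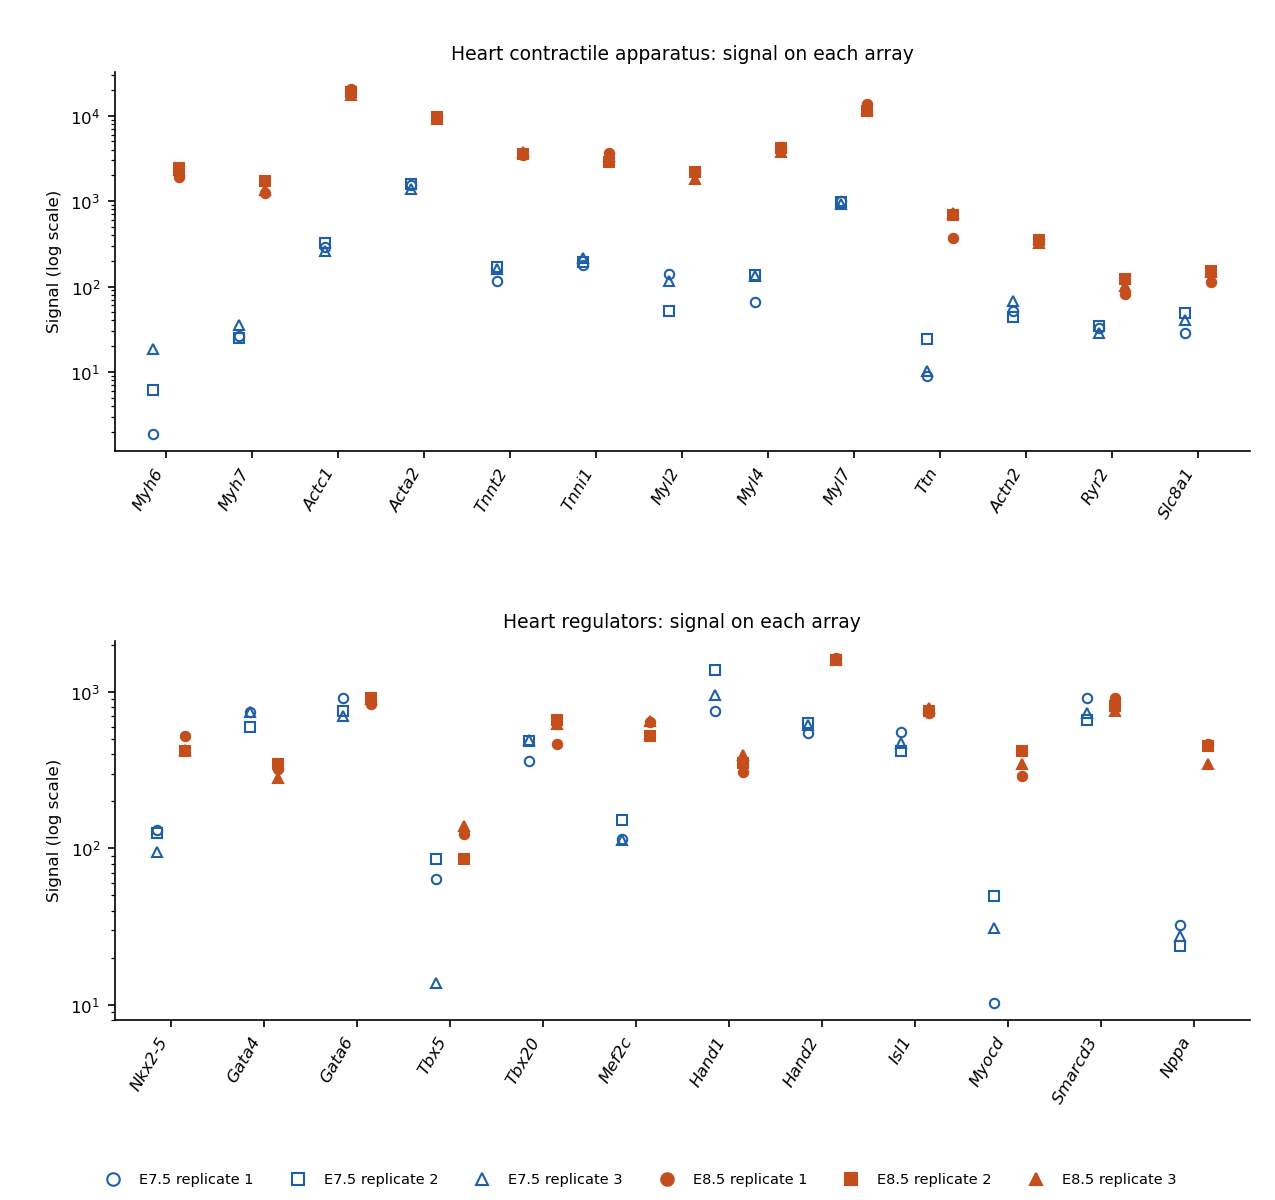
MAS5 signal (log scale) on each of the 3 E7.5 arrays (open blue) and 3 E8.5 arrays (filled orange) for 13 contractile genes (top) and 12 heart regulators (bottom). Every contractile gene shown lies higher on all E8.5 arrays, as with Actc1 at 20456, 18961 and 17288, whereas Gata6, Tbx5 and Smarcd3 overlap between the stages and Gata4 and Hand1 lie lower at E8.5.

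The promoters of the contractile genes were searched for the CArG box, the binding motif of serum response factor, because so many of these genes rose together. In the RefSeq promoter table (build GRCm38.p6), which holds 300 bases per gene from 250 bases before to 50 after the start, 28 of the 32 genes were found and 6 of them carried the motif, 21.4%. Over all 27025 genes in the table, 488 or 1.81% carried it. The 6 genes were Actc1, Acta1, Myl3, Myl7, Ldb3 and Myom1, and all of them rose, but so did most of the list, 26 of 32 genes. A match describes these letters only and is no site, and no match says only that the motif is not in this window. The 3 promoters below are shown because their genes rose and carry the motif. Each reads 5' to 3' along the strand of its gene, and the capitals mark the CArG box. Actc1 lies at chr2:114052826-114053125 on the minus strand and the box begins 47 bases before the start. Myl7 lies at chr11:5898733-5899032 on the minus strand, with the box 61 bases before the start. Myl3 lies at chr9:110763428-110763727 on the plus strand, with the box 85 bases before the start.
Actc1: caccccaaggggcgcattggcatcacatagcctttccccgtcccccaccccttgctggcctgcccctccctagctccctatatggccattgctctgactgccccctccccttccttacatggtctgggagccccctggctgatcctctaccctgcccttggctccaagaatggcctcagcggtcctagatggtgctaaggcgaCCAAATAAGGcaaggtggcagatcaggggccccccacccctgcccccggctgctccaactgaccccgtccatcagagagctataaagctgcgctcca
Myl7: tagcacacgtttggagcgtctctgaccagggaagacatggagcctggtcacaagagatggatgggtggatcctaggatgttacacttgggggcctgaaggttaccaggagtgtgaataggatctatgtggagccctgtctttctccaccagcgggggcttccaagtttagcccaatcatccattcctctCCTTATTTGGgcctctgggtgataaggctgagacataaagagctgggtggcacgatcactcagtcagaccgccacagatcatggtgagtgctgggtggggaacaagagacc
Myl3: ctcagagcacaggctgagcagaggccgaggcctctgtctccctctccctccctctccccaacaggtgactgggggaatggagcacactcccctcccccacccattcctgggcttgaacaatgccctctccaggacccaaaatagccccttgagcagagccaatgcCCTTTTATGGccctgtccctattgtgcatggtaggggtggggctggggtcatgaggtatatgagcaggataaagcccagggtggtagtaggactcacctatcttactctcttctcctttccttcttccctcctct

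In the blood vessel and haemogenic list 13 of 32 tested genes rose and 1 fell, with a median of 0.71. The rises included genes of formed endothelium. Emcn, endomucin, a surface sialoprotein of endothelium, had 2.53, 55.7 and 40.0 at E7.5 and 509, 475 and 488 at E8.5 (log2 change 3.27 ± 0.23, adjusted p = 5.7e-10). Cldn5, the tight junction claudin of vessels, had 60.4, 47.4 and 130.1 at E7.5 and 394, 437 and 443 at E8.5 (log2 change 2.18 ± 0.19, adjusted p = 2e-08). Sox18, a transcription factor of endothelial cells, had 138, 153 and 130.5 at E7.5 and 799.8, 656 and 643 at E8.5 (log2 change 2.12 ± 0.14, adjusted p = 1.8e-10). The stages did not overlap in any of the 3. Plvap (2.13), Icam2 (2.45), Cd34 (1.75) and the angiopoietin receptor Tek (1.34) rose as well. Several genes that act earlier, in the haemangioblast, were not called. Etv2, the ETS factor that starts the endothelial and blood programme, had 1048, 712 and 734 at E7.5 and 857, 783 and 748 at E8.5 (log2 change -0.04 ± 0.26, adjusted p = 0.92). Tal1 (-0.12) and Lmo2 (-0.31), which form a complex in blood progenitors, and Runx1 (-0.08), the factor of definitive haematopoiesis, also missed the call. Kdr, the VEGF receptor, had 327, 221 and 245 at E7.5 and 414, 584 and 418 at E8.5 (log2 change 0.78 ± 0.15, adjusted p = 0.00041), higher on every E8.5 array but by less than 2-fold. Gata2, a factor of blood progenitors and of trophoblast, fell from 462, 715 and 561 to 201, 239.5 and 263 (log2 change -1.20 ± 0.16, adjusted p = 4e-06), and with averaged probe sets 2 members of the list fell. Cdh5 (0.62) and Esam (0.65), junction proteins of endothelium, were highest at E7.5 on replicate 2, and without that array they passed the call, with 1.11 and 1.09.

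Globin transcripts and the regulators of the red cell went separate ways. Of 25 tested genes of primitive red cells, 7 rose and 3 fell, with a median of -0.04. Hbb-y, an embryonic beta-like globin represented by a probe set that can cross-hybridise, had 148, 177 and 156 at E7.5 and 16473, 15600.3 and 13700.4 at E8.5 (log2 change 6.36 ± 0.17, adjusted p = 2.3e-16). Hba-x, the embryonic zeta globin, had 196, 854 and 191 at E7.5 and 17518, 12906 and 10881 at E8.5 (log2 change 5.28 ± 0.33, adjusted p = 1.2e-10). Hbb-bh1, the other embryonic beta-like globin and likewise open to cross-hybridisation, was already bright at E7.5, with 9726, 14070.2 and 9764 at E7.5 and 35699, 29075 and 28319 at E8.5 (log2 change 1.48 ± 0.24, adjusted p = 3.8e-05). No array of one stage reached the other in these 3 globins. Alas2, the erythroid enzyme that begins haem synthesis, had 72.0, 47.9 and 109 at E7.5 and 250.2, 239 and 177 at E8.5 (log2 change 1.31 ± 0.21, adjusted p = 3.9e-05), and Hemgn, a nuclear protein of red cell precursors, rose by 2.14. The anion exchanger gene Slc4a1 rose by 3.05, but its probe set can cross-hybridise and the others gave -0.05 to 2.36. In contrast, Gata1, the zinc finger factor of the erythroid lineage, fell from 722, 391 and 625 to 166, 154 and 120.3 (log2 change -1.78 ± 0.21, adjusted p = 9.3e-07), and Gfi1b, a repressor in the same lineage, from 149, 214 and 263 to 45.6, 13.4 and 73.8 (log2 change -1.81 ± 0.27, adjusted p = 2e-05). Klf1, the erythroid Krüppel factor, had 556, 395 and 436 at E7.5 and 518, 211 and 253 at E8.5 and was not called (log2 change -0.55 ± 0.23, adjusted p = 0.064), nor was the erythropoietin receptor Epor (-0.81). By E9.5 the mean signal of Gata1 was 229.9 ± 20.1 (SD, n = 3) and that of Klf1 789 ± 167 (SD, n = 3). Hba-a1, an adult alpha globin placed in the maternal blood list, stayed under the brightness limit, with 44.4, 33.3 and 24.9 at E7.5 and 6.91, 11.1 and 60.9 at E8.5. Its probe set exceeded the array median on fewer than 2 of the 20 arrays, those of E18.5 included. Its low signal therefore does not bear on the presence of maternal blood. Averaging over the probe sets of a gene gave a called change of 1.79 for Slc4a1. Under quantile normalization, the change was 5.69 for Hbb-y. Without E7.5 replicate 2 the change was 5.94 for Hba-x.

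The GATA-type motif AGATAA was searched on both strands of the same promoter windows. Of the 18 red cell genes found there, 5 carried it, 27.8%, against 3432 or 12.7% of all 27025 genes. Among those 5, Alas2 and Hemgn rose, Cpox, an enzyme of haem synthesis, fell (-1.19), and Epor and Epb42 were not called. On the mean over probe sets, the call of Cpox (-0.50) ended. The call of Cpox (-0.85) ended without E8.5 replicate 1. The Alas2 promoter, at chrX:150547167-150547466 on the plus strand, is shown because its gene rose and carries the motif. The match is on the opposite strand, printed here as TTATCT in capitals, and begins 86 bases before the start.
Alas2: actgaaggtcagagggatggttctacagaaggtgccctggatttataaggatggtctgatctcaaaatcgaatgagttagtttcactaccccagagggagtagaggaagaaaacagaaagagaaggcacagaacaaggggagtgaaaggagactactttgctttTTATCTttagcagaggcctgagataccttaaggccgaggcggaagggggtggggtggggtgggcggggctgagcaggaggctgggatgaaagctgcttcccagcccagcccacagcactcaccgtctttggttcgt

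Somite genes rose without a fall, 11 of 22 tested, with a median of 1.04. Meox1, a homeobox gene of the sclerotome and dermomyotome, had 309, 374 and 323 at E7.5 and 1667, 1439 and 1551 at E8.5 (log2 change 2.13 ± 0.20, adjusted p = 3.7e-08). Pax3, which marks dermomyotome, dorsal neural tube and neural crest, had 92.2, 63.1 and 40.9 at E7.5 and 401, 440.4 and 412 at E8.5 (log2 change 2.32 ± 0.17, adjusted p = 1.4e-09). Foxc2, a forkhead factor of paraxial mesoderm, had 480.2, 506 and 505 at E7.5 and 1323, 1346 and 1385 at E8.5 (log2 change 1.40 ± 0.12, adjusted p = 2e-08). The stages were separate in these 3. Tbx18 (1.89), Meox2 (1.84) and Twist1 (1.43) rose too. Of the presomitic clock, Lfng, which glycosylates Notch, rose (1.14). Other genes of the clock and its outputs were not called, with changes of 0.69 for Hes7, 0.16 for Dll1, 0.04 for Mesp2 and -0.66 for Msgn1. Myf5, the first myogenic factor, was near the floor of the array at both stages (38.8, 4.89 and 0.90 at E7.5 and 66.1, 35.0 and 80.5 at E8.5; log2 change 1.16 ± 0.31, adjusted p = 0.0055). After quantile normalization, the call of Lfng (0.84) ended. Without E7.5 replicate 3, Lfng (0.96) and Myf5 (0.92) no longer passed. Leaving out E8.5 replicate 3 ended the call of Myf5 (0.99). In a fit of the 6 arrays alone, the call of Myf5 (1.16) ended.

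The neural plate and tube list had 16 rises and no fall among 27 tested genes, with a median of 1.19. Pax6, the paired box gene of eye, forebrain and neural tube, had 26.0, 67.3 and 33.2 at E7.5 and 889.5, 807 and 795 at E8.5 (log2 change 3.70 ± 0.17, adjusted p = 1.4e-12). Zic1, a dorsal neural gene, had 16.4, 31.3 and 2.88 at E7.5 and 495, 633 and 567 at E8.5 (log2 change 3.84 ± 0.16, adjusted p = 2.5e-13). Neurog2, a proneural factor, had 4.42, 16.3 and 18.0 at E7.5 and 129.8, 172 and 108 at E8.5 (log2 change 2.07 ± 0.20, adjusted p = 5.1e-08). Cdh2, N-cadherin, rose from 1018, 911 and 937 to 2973, 3646 and 3621 (log2 change 1.80 ± 0.09, adjusted p = 4.9e-12). In these 4 genes every E8.5 array lay above every E7.5 array, and Zic1 continued to 3849 ± 319.6 (SD, n = 3) at E9.5 and Neurog2 to 579 ± 42.2 (SD, n = 3). Ncam1, the neural adhesion molecule, rose by 1.82. Irx3 (0.15) and Zic2 (-0.31), which are expressed in the neural plate from gastrulation on, were not called. With the probe sets of each gene averaged in place of the brightest one, the change was 2.09 for Pax6 and 3.09 for Zic1.

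Of 22 tested genes that pattern brain regions 13 rose and none fell, with a median of 1.53. Egr2, also called Krox20, marks hindbrain rhombomeres and had 31.8, 57.8 and 19.9 at E7.5 and 411, 412 and 451 at E8.5 (log2 change 2.90 ± 0.27, adjusted p = 4e-08). En2, of the midbrain-hindbrain border, had 21.9, 28.8 and 13.7 at E7.5 and 266, 334 and 356 at E8.5 (log2 change 2.87 ± 0.18, adjusted p = 1.4e-10). Wnt1, the ligand of the same border, had 3.14, 20.7 and 31.2 at E7.5 and 234, 239 and 163 at E8.5 (log2 change 2.47 ± 0.28, adjusted p = 5.9e-07). Six6, an eye field factor, had 1.22, 3.67 and 10.7 at E7.5 and 72.6, 174 and 131 at E8.5 (log2 change 2.24 ± 0.28, adjusted p = 2.1e-06). All E7.5 arrays were near the floor in these 4 genes and no array overlapped. Otx1 (2.32), Fgf17 (2.31) and Lhx2 (2.05) rose as well. Egr2 was down to 65.2 ± 12.8 (SD, n = 3) at E9.5. The genes that divide the neural plate already at gastrulation were not called, with 0.14 for Otx2, -0.49 for Gbx2, 0.16 for Six3 and 0.04 for Hesx1.

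Neural crest and pharyngeal arch genes numbered 11 rises and no fall among 21 tested, with a median of 1.22. Sox10, the factor of migrating crest, had 32.6, 9.76 and 30.5 at E7.5 and 487, 381 and 313 at E8.5 (log2 change 3.08 ± 0.27, adjusted p = 1.7e-08). Tfap2b, an AP-2 factor of crest, had 40.6, 25.8 and 8.49 at E7.5 and 351, 285 and 192 at E8.5 (log2 change 2.59 ± 0.22, adjusted p = 9.4e-09). Prrx2, a homeobox gene of arch mesenchyme, had 247, 213 and 328 at E7.5 and 1833, 1519 and 1498 at E8.5 (log2 change 2.52 ± 0.16, adjusted p = 1.9e-10). The stages did not overlap. Dlx1, which patterns the arches, was not called (0.25) and had a mean signal of 149 ± 68.6 (SD, n = 3) at E9.5. The number of falls was 1 under quantile normalization and without E8.5 replicate 2. In the surface ectoderm and placode list 4 of 16 tested genes rose and 3 fell, with a median of 0.08. Eya1, a coactivator of the placodes, had 124, 108 and 125 at E7.5 and 685, 705 and 611 at E8.5 (log2 change 2.26 ± 0.13, adjusted p = 5.6e-11), and Tfap2c, an AP-2 factor of both surface ectoderm and trophoblast, fell by 2.69. With averaged probe sets 2 members of that list rose. When all probe sets of a gene were averaged, the change was 1.503 for Eya1 and 1.62 for Sox10.

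Lateral and intermediate mesoderm contributed 8 rises and 1 fall among 17 tested genes, with a median of 0.93. Nr2f1, the orphan nuclear receptor COUP-TFI, had 29.0, 46.7 and 13.2 at E7.5 and 1440.0, 2060.5 and 1884 at E8.5 (log2 change 5.07 ± 0.16, adjusted p = 5.6e-15). Its paralogue Nr2f2 had 100.4, 162 and 143 at E7.5 and 748, 882 and 710.5 at E8.5 (log2 change 2.34 ± 0.15, adjusted p = 2.1e-10). Osr1, a zinc finger factor of the nephrogenic cord and heart field, had 113, 98.6 and 40.6 at E7.5 and 538, 409 and 419 at E8.5 (log2 change 2.19 ± 0.33, adjusted p = 1.8e-05) and was lower again at E9.5, at 179 ± 47.8 (SD, n = 3). In all 3 the stages were apart. Of 11 tested genes used as markers of primordial germ cells, 2 rose and 2 fell. The fallers were Ddx4 (-2.36), a helicase of germ cells, and Tfap2c, and the risers were the chemokine gene Cxcl12 and its receptor Cxcr4. Prdm1, which specifies the germ line, had 199, 299.6 and 301 at E7.5 and 356, 390.2 and 358 at E8.5 (log2 change 0.45 ± 0.16, adjusted p = 0.029) and was not called. Dppa3 and Prdm14, the most specific markers, stayed under the brightness limit, with 93.4, 36.5 and 64.7 at E7.5 and 42.9, 52.0 and 32.1 at E8.5 for Dppa3 and 5.17, 7.66 and 12.6 at E7.5 and 1.65, 15.04 and 34.1 at E8.5 for Prdm14. Averaging over the probe sets of a gene ended the call of Cxcl12 (0.38). With quantile normalization, the calls of Cxcl12 (0.89) and Cxcr4 (0.88) ended. With scaling by the 75th percentile, the call of Cxcr4 (0.998) ended.

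Hox genes rose across the clusters: 7 of 10 tested in paralogue groups 1 to 4, 6 of 8 in groups 5 to 8 and 5 of 11 in groups 9 to 13, with no fall. The medians were 1.62, 2.06 and 0.90. Hoxc8, of the trunk, had 48.2, 76.6 and 84.9 at E7.5 and 1543, 1628 and 1518 at E8.5 (log2 change 4.07 ± 0.13, adjusted p = 7e-15). Hoxb9 had 40.1, 39.8 and 6.57 at E7.5 and 793, 658 and 573 at E8.5 (log2 change 3.74 ± 0.26, adjusted p = 5.8e-10). Hoxc4 had 80.4, 57.0 and 45.6 at E7.5 and 857, 887 and 881 at E8.5 (log2 change 3.39 ± 0.17, adjusted p = 2.9e-12). No array of the stages overlapped in these 3. Hoxb1, which is on in the posterior embryo at gastrulation, was the single tested member of groups 1 to 4 with a change below 0, with 1143, 888 and 1036 at E7.5 and 787, 834 and 832 at E8.5, and was not called (log2 change -0.31 ± 0.16, adjusted p = 0.14). Hoxb2 (0.81), Hoxb4 (0.96), Hoxb5 (0.70) and Hoxb6 (0.74), all of the B cluster, were higher by less than 2-fold. At the far end of the clusters Hoxd11 (0.20), Hoxd12 (-0.13), Hoxd13 (-0.03) and Hoxa11 (-0.18) were not called, and Hoxa13, Hoxb13 and Hoxc13 were under the brightness limit. Under quantile normalization the rises in the groups numbered 6, 6 and 4, and the calls of Hoxa2 (0.92) and Hoxd9 (0.915) ended. With averaged probe sets, the calls of Hoxa3 (0.94) and Hoxa4 (0.92) ended and the change was 1.06 for Hoxa5, 3.06 for Hoxa9 and 1.34 for Hoxc5.

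Of 17 tested genes of trophoblast stem cells and chorion, 11 fell and none rose, with a median of -1.68. The summed signal of the list was 32712 to 35413 on the E7.5 arrays and 7921 to 8886 on the E8.5 arrays. Elf5, the ETS factor that defines trophoblast stem cells, had 3025, 2345 and 2092 at E7.5 and 38.8, 94.4 and 55.1 at E8.5 (log2 change -4.86 ± 0.36, adjusted p = 1.1e-09). Ascl2, an imprinted helix-loop-helix factor of the ectoplacental cone, had 1413, 1975 and 1266 at E7.5 and 67.4, 104 and 36.4 at E8.5 (log2 change -4.09 ± 0.30, adjusted p = 9.5e-10). Rhox5, a homeobox gene of the X-linked Rhox cluster in extraembryonic tissue, had 19957, 17357 and 17898 at E7.5 and 1688, 1503 and 1668 at E8.5 (log2 change -3.48 ± 0.16, adjusted p = 1.3e-12). Bmp8b, a BMP ligand of the extraembryonic ectoderm, had 561, 399.8 and 391 at E7.5 and 8.97, 27.8 and 27.1 at E8.5 (log2 change -3.35 ± 0.37, adjusted p = 4.3e-07). For all 4 the stages were far apart. Rhox6 (-2.93), Rhox9 (-2.31), Eomes and Tfap2c fell with them. The FGF receptor Fgfr2 (0.29) and Ets2 (0.03), genes of the list with wide expression in the embryo, were not called. Neither was the caudal gene Cdx2 (-0.16). Esrrb was not called either (-0.05), but on a dim probe set that can cross-hybridise, and its other probe sets gave -2.10 and -1.12. Gata3, a trophoblast factor that also acts elsewhere in the embryo, had 176, 218 and 139.7 at E7.5 and 202, 92.6 and 116 at E8.5 (log2 change -0.37 ± 0.24, adjusted p = 0.24). On the mean over probe sets, the change was -3.91 for Elf5.

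The falls of giant cell and spongiotrophoblast genes varied in size with the E7.5 arrays used. Of 8 tested, 5 fell and none rose, with a median of -1.25. Prl4a1, a prolactin-family hormone of giant cells, had 314, 6943 and 589.7 at E7.5 and 80.8, 49.2 and 7.13 at E8.5 (log2 change -4.14 ± 0.73, adjusted p = 0.00012). Prl7a1, of the same family, had 146, 1048 and 407 at E7.5 and 59.4, 11.6 and 44.7 at E8.5 (log2 change -2.82 ± 0.50, adjusted p = 0.00012), and Plac1, a placental gene of the X chromosome, had 2525, 7673 and 4338 at E7.5 and 623, 561 and 620.0 at E8.5 (log2 change -2.81 ± 0.24, adjusted p = 1.5e-08). In each of these the E7.5 array of replicate 2 was the highest, and 11 of the 14 list members with a probe set were highest at E7.5 on that array, against 4187 of the 14044 genes tested. Without that array the changes were -2.83 for Prl4a1, -2.16 for Prl7a1 and -2.41 for Plac1, while 5 members still fell and 1, Pcdh12, a cadherin of giant cells and endothelium, rose (1.20, adjusted p = 0.0052). Without E8.5 replicate 3 the number of falls was 4, and 1 member rose under quantile normalization and without E7.5 replicate 3. E7.5 replicate 2 was also highest for Serpinb9g, a serpin, with 101, 1733 and 679.5 at E7.5 and 2.12, 23.8 and 10.01 at E8.5, and for Adm, adrenomedullin, whose probe set can cross-hybridise, with 567, 4961 and 1277 at E7.5 and 160.4 on the highest E8.5 array. Leaving it out turned their changes from -3.88 to -3.02 and from -3.34 to -2.51. The summed signal of the giant cell list was 5636 to 22022 at E7.5 and 2505 to 2754 at E8.5. Tpbpa, the defining gene of spongiotrophoblast, was under the brightness limit, with 16.6, 101 and 32.1 at E7.5 and 26.1, 14.3 and 21.1 at E8.5. Of the 693 falling genes 221 were highest at E7.5 on replicate 2. With the probe sets of each gene averaged in place of the brightest one, the call of Prl7a1 (-0.94) ended. Without E7.5 replicate 1 the change was -4.04 for Adm, -5.01 for Prl4a1, -3.49 for Prl7a1 and -4.92 for Serpinb9g.

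The visceral and yolk sac endoderm list had the highest share of falls, 20 of 23 tested with no rise, and a median of -1.61. Its summed signal was 155231 to 177524 at E7.5, 46434 to 54173 at E8.5 and 6917 to 13643 at E9.5. Apoc2, an apolipoprotein, had 13908, 13499 and 14718 at E7.5 and 1957, 1507 and 1522 at E8.5 (log2 change -3.07 ± 0.37, adjusted p = 1.6e-06). Amn, amnionless, a partner of cubilin in protein uptake, had 7636, 6822 and 7504 at E7.5 and 1053, 815 and 837 at E8.5 (log2 change -2.99 ± 0.25, adjusted p = 8.1e-09). Cubn, cubilin itself, had 10653, 6443 and 7318 at E7.5 and 1182, 921 and 1065 at E8.5 (log2 change -2.89 ± 0.54, adjusted p = 0.00021). Hnf4a, the nuclear receptor that drives the visceral endoderm programme, had 2280.4, 1319.6 and 1596 at E7.5 and 351, 204 and 254 at E8.5 (log2 change -2.57 ± 0.27, adjusted p = 2.2e-07). The lowest E7.5 array exceeded the highest E8.5 array several-fold in each of these. Spink1, a secreted trypsin inhibitor, fell by 2.15. Afp, alpha-fetoprotein, the best known product of this tissue, was lower on every E8.5 array but not called, with 8697, 9898 and 9492 at E7.5 and 6429.6, 6965 and 7096 at E8.5 (log2 change -0.45 ± 0.23, adjusted p = 0.13). The other probe sets of Afp gave -1.10 to -0.12. Ttr, transthyretin, fell by 1.18 and was still at 15008, 14708 and 12855 at E8.5, but its probe set can cross-hybridise. The other probe sets of Ttr gave -1.62 to -1.38.

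The anterior visceral endoderm had 1 rise and 1 fall among 10 tested genes and a median of 0.04. Without E7.5 replicate 2 a second member rose, Gsc, a homeobox gene of the organizer (1.06, adjusted p = 0.0053). Cer1 fell, as above, and Sfrp5, a secreted Wnt antagonist also found in foregut endoderm, had 138, 169.8 and 141 at E7.5 and 573, 553 and 494 at E8.5 (log2 change 1.69 ± 0.28, adjusted p = 6.7e-05). In the parietal endoderm and Reichert's membrane list 3 of 19 tested genes fell, with a median of -0.34. Srgn, serglycin, had 1119.6, 1178 and 1442 at E7.5 and 296, 102 and 181 at E8.5 (log2 change -2.63 ± 0.21, adjusted p = 5.1e-09), while the basement membrane genes were not called, with -0.54 for Lama1, -0.08 for Lamb1, -0.34 for Col4a1 and -0.73 for Sparc. The allantois and extraembryonic mesoderm gave 1 rise and 1 fall among 12 tested, the fall being that of Hand1. The rise was Vcam1, the adhesion molecule through which the allantois attaches to the chorion, with 13.4, 7.33 and 31.7 at E7.5 and 139, 137 and 137 at E8.5 (log2 change 1.95 ± 0.15, adjusted p = 1.7e-09). Its partner on the chorion, the integrin gene Itga4, had 82.4, 116 and 90.2 at E7.5 and 165, 164 and 148 at E8.5 (log2 change 0.60 ± 0.13, adjusted p = 0.0012), under the 2-fold minimum. Tbx4 (0.39), which is needed for the allantois to form vessels, and Bmp4 (-0.23) were not called.

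Maternal tissue was looked for with 2 lists. The decidua and uterine immune list had 3 rises and 1 fall among 12 tested, without the fall when E8.5 replicate 2 was left out. Its summed signal, 15114 to 15699 at E7.5 and 17218 to 19289 at E8.5, came mostly from Gja1, a gap junction gene also widely expressed in the embryo, with a mean of 11803 at E7.5 and 13213 at E8.5 on a probe set that can cross-hybridise. Prl8a2, a prolactin-family hormone of the decidua, had 648, 1263 and 958 at E7.5 and 2661, 747 and 1050.1 at E8.5 (log2 change 0.46 ± 0.36, adjusted p = 0.34), with E8.5 replicate 1 the highest array, and 33.6 ± 17.4 (SD, n = 3) at E9.5. Pgr, the progesterone receptor, had 165, 84.0 and 109 at E7.5 and 89.2, 84.6 and 89.6 at E8.5 (log2 change -0.32 ± 0.23, adjusted p = 0.3), and Prf1, perforin, 87.9, 43.5 and 65.4 at E7.5 and 64.9, 54.9 and 85.3 at E8.5 (log2 change 0.06 ± 0.26, adjusted p = 0.89). The members that rose were Cryab (1.86), Htra3 (1.56) and Wnt4 (1.14), and the fall was Epas1 (-1.08), a hypoxia-inducible factor, all of which are also expressed in the embryo. The granzyme genes of uterine natural killer cells, Gzmc, Gzmd, Gzme, Gzmf and Gzmg, were all under the brightness limit. Of 8 tested genes of maternal blood limma called 0, with 3 at an unadjusted p under 0.05, and 1 member rose under quantile normalization and without E8.5 replicate 3. The summed signal of that list was 170.4 to 303 at E7.5 and 308 to 492 at E8.5. Taken over the extraembryonic and maternal lists, 41 of the 693 falling genes were members, 5.92%, against 0.755% of the genes tested. The lists were chosen with earlier results of these data known, so these shares describe the lists and are no test. The part of extraembryonic and maternal tissues in the other falls was not tested. When all probe sets of a gene were averaged, the calls of Epas1 (-0.93) and Htra3 (0.25) ended and the change was 1.22 for Cryab. Under quantile normalization, the calls of Epas1 (-0.97) and Wnt4 (0.90) ended. The call of Epas1 (-0.98) ended without E8.5 replicate 2.

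**Figure D3:**
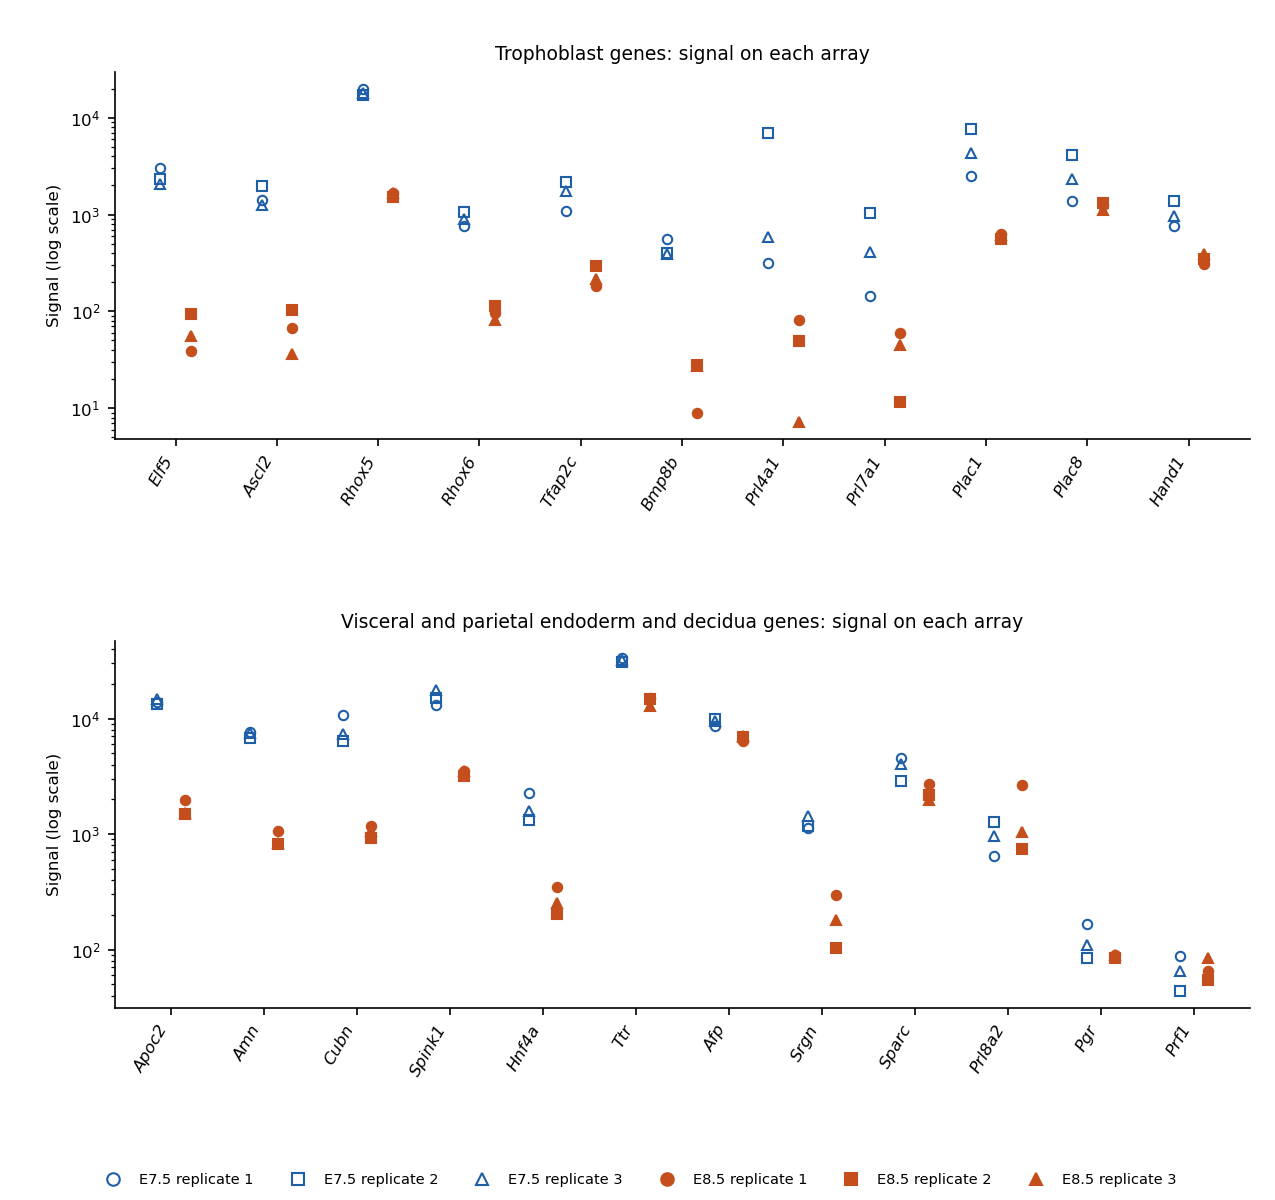
MAS5 signal (log scale) on each E7.5 (open blue) and E8.5 (filled orange) array for 11 trophoblast genes (top) and for 12 genes of visceral endoderm, parietal endoderm and decidua (bottom). Prl4a1, Prl7a1 and Plac1 are highest on E7.5 replicate 2 (squares), with 6943 for Prl4a1, whereas the visceral endoderm genes Apoc2, Amn and Cubn are well above all E8.5 arrays on all 3 E7.5 arrays.

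Of 13 tested Wnt ligands, 7 rose and 2 fell. Wnt1, described above with the brain genes, had the largest rise of the ligands in this fit. Wnt2, expressed in the early heart and vessels, had 133, 193 and 195 at E7.5 and 656, 596 and 611 at E8.5 (log2 change 1.72 ± 0.15, adjusted p = 1.3e-08). Wnt8a, the ligand of the streak, fell, and Wnt7b, a ligand of chorion ectoderm, went from 647, 452 and 633 to 169, 165 and 149 (log2 change -1.68 ± 0.17, adjusted p = 8.4e-08). For Wnt2 and Wnt7b the stages did not overlap. Wnt3a, the ligand of the tail bud, had 222, 224 and 325 at E7.5 and 196, 292 and 175 at E8.5 (log2 change -0.21 ± 0.26, adjusted p = 0.58), and Wnt3 was under the brightness limit. The other ligands that rose were Wnt4, Wnt5a (1.02), Wnt5b (1.20), Wnt7a (1.87) and Wnt8b (1.49), the last a gene of the forebrain. Under quantile normalization 4 ligands rose in place of 7. Of 34 tested receptors, antagonists and targets 9 rose and 1 fell, with a median of 0.56. The antagonists Sfrp1 (1.25), Sfrp2 (1.89) and Sfrp5 (1.69) and the receptor gene Fzd2 (1.43) rose. Readouts of the canonical pathway were not called, with 1069.8, 850.1 and 965 at E7.5 and 1012, 1127 and 1042 at E8.5 for Axin2 (log2 change 0.14 ± 0.14, adjusted p = 0.48) and -0.20 for Sp5. Lef1 (0.66), Nkd1 (0.59) and Apcdd1 (0.47), also of this list, were higher on every E8.5 array but by less than 2-fold. The other probe set of Lef1 gave 1.13, and the probe set of Apcdd1 can cross-hybridise. Averaging over the probe sets of a gene ended the call of Wnt7a (0.64) and Wnt8b (0.75). After quantile normalization, the calls of Wnt4 (0.90), Wnt5a (0.85) and Wnt5b (0.90) ended. Without E7.5 replicate 3, Wnt5a (0.99) no longer passed. Leaving out E8.5 replicate 1 ended the call of Wnt5a (0.98). The call of Wnt5a (0.97) ended without E8.5 replicate 2. With scaling by the 75th percentile, the call of Wnt5a (0.95) ended.

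In the nodal pathway 3 of 14 tested genes fell and none rose, with a median of -0.36. The ligand Nodal was dim and variable, with 154, 75.7 and 75.01 at E7.5 and 94.2, 6.05 and 107 at E8.5 (log2 change -0.62 ± 0.41, adjusted p = 0.26). The fallers were Cfc1, Foxh1 and Lefty2, a co-receptor, a Smad partner and a feedback antagonist, with values given above. The shared signal transducers Smad2 (-0.02), Smad3 (0.37) and Smad4 (0.12) were not called. Among 28 tested BMP pathway genes 3 rose and 2 fell, with a median of 0.26. The ligands Bmp2 (-0.25), Bmp4 (-0.23), Bmp5 (0.61) and Bmp7 (0.43) were not called, and Bmp8b fell. The target genes Id1 (-0.14), Id2 (-0.52) and Id3 (0.51), which inhibit helix-loop-helix factors, were not called. The 3 that rose were the receptor gene Bmpr1b (1.11), Id4 (1.06) and Grem1 (1.08), an antagonist of the limb and trunk, and Bmp6 (-1.14) fell. On the mean over probe sets, the calls of Bmpr1b (0.53) and Id4 (0.80) ended. With quantile normalization, the call of Id4 (0.80) ended. Without E7.5 replicate 1, Bmp6 (-0.90) and Grem1 (0.78) no longer passed. Leaving out E8.5 replicate 1 ended the call of Grem1 (0.98). The call of Id4 (0.82) ended without E7.5 replicate 2. With scaling by the 75th percentile, the call of Id4 (0.996) ended.

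FGF ligands changed in both directions: of 25 pathway genes 6 rose and 4 fell, with a median of 0.36. Fgf17 and Fgf8, ligands of the midbrain-hindbrain border and tail bud, rose, Fgf17 with 57.9, 71.5 and 106 at E7.5 and 595, 396 and 472 at E8.5 (log2 change 2.31 ± 0.22, adjusted p = 7e-08) and Fgf8 with 128, 115 and 184 at E7.5 and 471, 351 and 309 at E8.5 (log2 change 1.27 ± 0.24, adjusted p = 0.00025). Fgf18 had 13.4, 30.6 and 17.4 at E7.5 and 194, 185 and 155 at E8.5 (log2 change 2.15 ± 0.39, adjusted p = 0.00015). Fgf3, expressed in streak, hindbrain and endoderm, fell from 952, 979 and 1098 to 355, 286 and 351 (log2 change -1.54 ± 0.29, adjusted p = 0.00023). None of these 4 ligands had overlapping arrays. Feedback and target genes of the pathway were divided. Dusp4 (1.01), a MAP kinase phosphatase, and Il17rd (1.15), an inhibitor also called Sef, rose. Dusp6 (0.74) and Spry2 (0.36) were higher on every E8.5 array but by less than 2-fold. Spry4 (0.13) and Etv5 (-0.10) were not called, and their arrays overlapped. Klb, a co-receptor for endocrine FGFs, fell by 2.54, and the number of falls was 2 when probe sets were averaged. With the probe sets of each gene averaged in place of the brightest one, the call of Il17rd (0.69) ended and the change was -1.29 for Klb. Under quantile normalization, the calls of Dusp4 (0.91) and Fgf8 (0.94) ended. Without E7.5 replicate 1, Dusp4 (0.92) no longer passed. Leaving out E8.5 replicate 1 ended the call of Dusp4 (0.97). The call of Dusp4 (0.97) ended without E8.5 replicate 3. Without E8.5 replicate 2, Il17rd (0.94) no longer passed. With scaling by the 75th percentile, the call of Dusp4 (0.94) ended.

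In the Notch pathway 9 of 21 tested genes rose and none fell, with a median of 0.69. Hes5, a target in neural progenitors whose probe set can cross-hybridise, had 39.4, 61.8 and 75.2 at E7.5 and 258, 240.4 and 462 at E8.5 (log2 change 2.00 ± 0.37, adjusted p = 0.00022). Nrarp, a feedback target, had 555, 604 and 554 at E7.5 and 1268, 1324 and 1213 at E8.5 (log2 change 1.12 ± 0.09, adjusted p = 4e-09), and Hey2, a target in heart and vessels, 49.8, 67.9 and 97.6 at E7.5 and 178, 216 and 187 at E8.5 (log2 change 1.19 ± 0.20, adjusted p = 5.4e-05). The stages were separate in all 3. The ligand gene Jag1 (1.34) and the receptor gene Notch3 (1.05) rose. The ligands Dll1 (0.16) and Dll3 (0.03) and the receptor Notch1 (0.48) were not called. With averaged probe sets the call of Jag1 (0.67) ended. That of Notch3 ended under quantile normalization (0.82), with scaling by the 75th percentile (0.98), and without E7.5 replicate 1 (0.96) or E8.5 replicate 3 (0.96). The count of rises was 4 under quantile normalization and 7 when arrays were scaled by the 75th percentile. In the hedgehog pathway 7 of 14 tested genes rose and none fell, with a median of 0.99. Gli1, the target that reports hedgehog activity, had 131, 147 and 119.7 at E7.5 and 331, 475 and 429 at E8.5 (log2 change 1.46 ± 0.18, adjusted p = 1.7e-06). Gli3, the main repressor, had 805, 790.2 and 605 at E7.5 and 1956, 2102 and 2078 at E8.5 (log2 change 1.46 ± 0.11, adjusted p = 1.6e-09), and the co-receptor gene Cdon rose by 1.33. Ptch1, receptor and target at once, had 3749, 3858 and 3710.3 at E7.5 and 5906, 7136 and 7402 at E8.5 (log2 change 0.84 ± 0.10, adjusted p = 1.7e-06), apart on all arrays but under 2-fold. Ihh, the ligand of visceral endoderm, had 260.2, 298 and 223 at E7.5 and 118, 130.3 and 166 at E8.5 (log2 change -0.81 ± 0.30, adjusted p = 0.039).

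In the retinoic acid pathway 5 of 15 tested genes rose and 1 fell, with a median of 0.60. Rarb, a receptor and direct target of retinoic acid, had 140.4, 174 and 209 at E7.5 and 922, 762 and 821 at E8.5 (log2 change 2.11 ± 0.13, adjusted p = 5.6e-11). The binding proteins Crabp1 and Crabp2, of neural tube and crest, had 1196, 1372 and 1327 at E7.5 and 10396, 9392 and 10567 at E8.5 (log2 change 2.94 ± 0.09, adjusted p = 3.9e-15) and 3114, 2916 and 2874 at E7.5 and 13629.9, 12461 and 13054 at E8.5 (log2 change 2.13 ± 0.08, adjusted p = 5.5e-14). Cyp26b1, an enzyme that degrades retinoic acid, had 18.9, 4.45 and 6.31 at E7.5 and 181, 142 and 202 at E8.5 (log2 change 2.50 ± 0.17, adjusted p = 3.4e-10). In these 4 the E8.5 arrays were all above the E7.5 arrays. Aldh1a2, the enzyme that makes retinoic acid in the early embryo, had 1119, 1337 and 1605 at E7.5 and 1495, 1929.8 and 2124 at E8.5 and was not called (log2 change 0.44 ± 0.13, adjusted p = 0.0084), nor was Cyp26a1 (-0.25), the degrading enzyme of the tail bud. The fall was Rbp4, the retinol carrier secreted by visceral endoderm, from 11694, 11238 and 12808 to 4189, 3379 and 3271 (log2 change -1.72 ± 0.18, adjusted p = 2.3e-07).

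**Figure D4:**
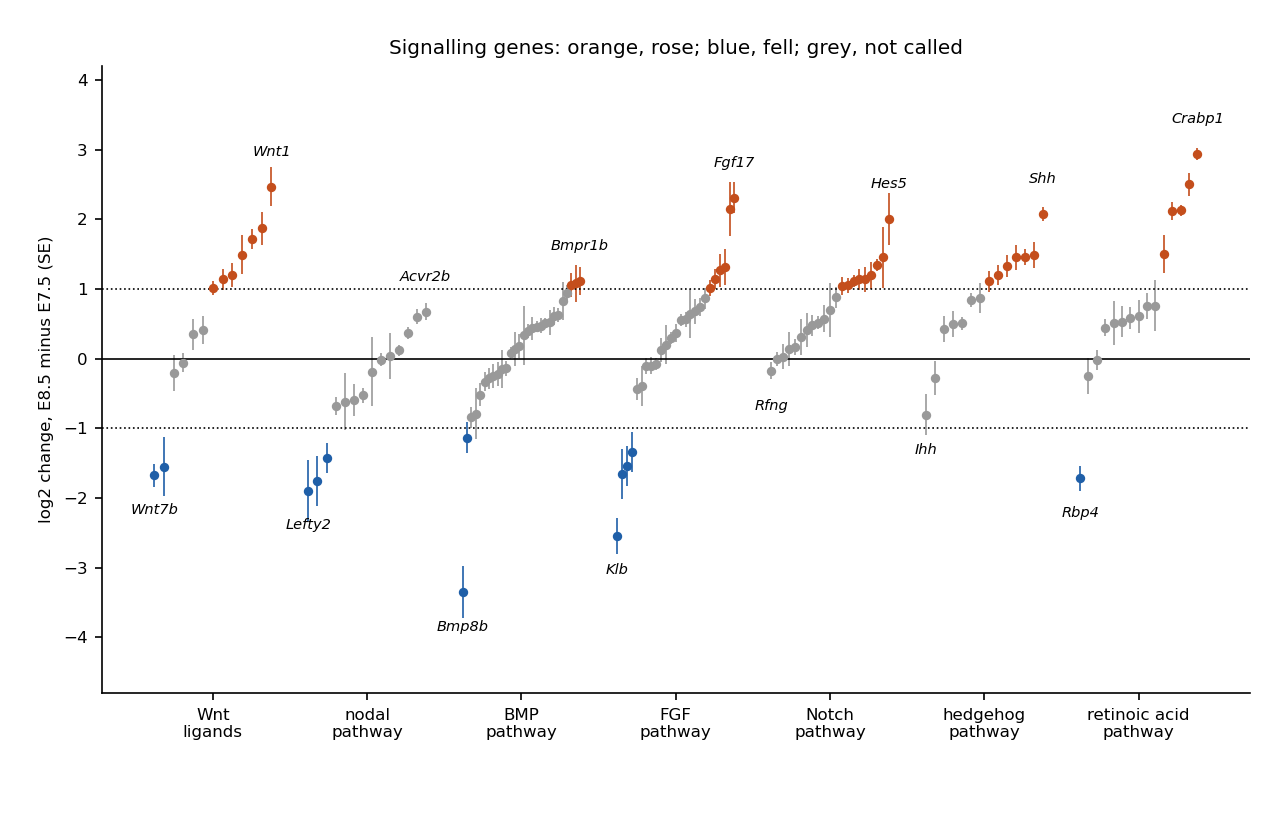
Change from E7.5 to E8.5 on the log2(signal + 25.9) scale for each tested gene of 7 signalling groups, with bars of 1 standard error of the fit; orange points rose, blue points fell and grey points were not called, and dotted lines mark 2-fold. The nodal group has 3 falls and no rise, whereas the Notch and hedgehog groups have 9 and 7 rises and no fall.

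Of 24 tested lipoprotein and lipid transport genes 15 fell and 1 rose, with a median of -1.70. Mttp, which loads lipid onto lipoproteins, had 2565, 2748 and 2898 at E7.5 and 368, 446 and 421 at E8.5 (log2 change -2.66 ± 0.14, adjusted p = 6.3e-12). Apoe, an apolipoprotein, had 27217, 19735 and 21113 at E7.5 and 5159.9, 4639 and 5105 at E8.5 (log2 change -2.17 ± 0.13, adjusted p = 6.3e-11), and Fabp1, the liver-type fatty acid binding protein, 680.2, 851 and 542 at E7.5 and 90.8, 24.3 and 25.6 at E8.5 (log2 change -3.40 ± 0.28, adjusted p = 6.6e-09). No arrays overlapped in the 3. Pla2g12b (-2.77), Apom (-2.47) and Apoc2 fell too, and the rise was Fabp4 (1.43), a fatty acid binding protein of endothelium and fat. Of 23 tested lysosomal and endocytic genes 5 fell and none rose, with a median of -0.75. Ctsh, a cysteine cathepsin, had 10552, 8589 and 11136 at E7.5 and 1554, 1249 and 1382 at E8.5 (log2 change -2.83 ± 0.11, adjusted p = 1.3e-13), Lgmn, legumain, had 8577, 8232 and 10143 at E7.5 and 1831, 1699.5 and 1409.6 at E8.5 (log2 change -2.43 ± 0.10, adjusted p = 3.3e-13), and Ctsb fell by 2.04. Lamp2, a lysosomal membrane protein, was not lower (0.53). Among 24 tested amino acid transporters 5 fell and none rose, with a median of -0.13. Slc7a7, a cationic amino acid exchanger of epithelia, had 3019.8, 2371 and 2560.3 at E7.5 and 379, 241 and 258 at E8.5 (log2 change -3.09 ± 0.22, adjusted p = 7.6e-10), and Slc7a9 (-2.30), Slc7a8 (-2.09) and Slc7a3 (-2.23), the last also a gene of pluripotent cells, fell as well. The visceral endoderm list fell on the same arrays, with the summed signals given above, and its part in these falls was not tested. When all probe sets of a gene were averaged, the call of Fabp4 (0.53) ended.

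In the glycolysis and hypoxia list 2 of 30 tested genes rose and 4 fell, with a median of 0.21. Ldha, which makes lactate, had 35313, 29702 and 32059 at E7.5 and 39955, 35597 and 36689 at E8.5 (log2 change 0.21 ± 0.11, adjusted p = 0.13), whereas Ldhb, the heart-type subunit, fell from 2122, 2138 and 1859 to 901, 729 and 896 (log2 change -1.25 ± 0.13, adjusted p = 1.7e-07). Ndrg1, a hypoxia and stress gene, fell by 1.69, and Egln1, an oxygen sensor that marks HIF for destruction, rose by 1.18. The number of rises was 1 under quantile normalization and with averaged probe sets. The glucose transporters Slc2a1 (-0.08) and Slc2a3 (-0.29) were not called. Of 36 tested subunits of oxidative phosphorylation limma called 0, with 13 at an unadjusted p under 0.05, and their changes lay between -0.41 and 0.53. With no minimum fold, 4 of them would have been called higher and 7 lower. Of 19 tested genes of cholesterol synthesis 3 rose, with a median of 0.40, namely Idi1 (1.17), Cyp51 (1.17) and Msmo1 (1.02). The feedback regulator Insig1 had 348, 269 and 329.7 at E7.5 and 556, 625 and 622 at E8.5 (log2 change 0.88 ± 0.11, adjusted p = 3.1e-06), and Sqle, an enzyme of the pathway, was likewise higher by less than 2-fold (0.74). In one-carbon, serine and nucleotide synthesis 3 of 21 tested genes fell, with a median of -0.37. Folr1, a folate receptor, had 3321, 3219.9 and 3586 at E7.5 and 853, 614 and 536 at E8.5 (log2 change -2.32 ± 0.17, adjusted p = 1.7e-09), Gldc, the glycine cleavage enzyme, had 4713, 3725 and 4608 at E7.5 and 1342, 1264 and 1286 at E8.5 (log2 change -1.72 ± 0.15, adjusted p = 1.9e-08), and Psph, the last enzyme of serine synthesis, fell by 1.38. Averaging over the probe sets of a gene ended the call of Cyp51 (0.90), Idi1 (0.99) and Msmo1 (0.38). After quantile normalization, the calls of Cyp51 (0.96) and Msmo1 (0.92) ended. Leaving out E7.5 replicate 1 ended the call of Msmo1 (0.92). The call of Msmo1 (0.99) ended without E8.5 replicate 1. Without E8.5 replicate 3, Msmo1 (0.998) no longer passed. With scaling by the 75th percentile, the call of Msmo1 (0.94) ended.

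Of 21 tested genes of DNA replication and mitosis limma called 0, with 4 at an unadjusted p under 0.05, and their changes lay between -0.19 and 0.29. Mki67, a marker of cycling cells, had 3554, 3169 and 3255 at E7.5 and 3293, 3922 and 3487 at E8.5 (log2 change 0.10 ± 0.08, adjusted p = 0.36). Among cyclins, inhibitors and Myc factors 3 of 21 rose and none fell, with a median of 0.25. Ccnd2, cyclin D2, had 6043, 5231 and 5694 at E7.5 and 13886, 13485 and 13101 at E8.5 (log2 change 1.25 ± 0.07, adjusted p = 3.1e-11), and Mycl, a Myc family member, 159, 232 and 253 at E7.5 and 697, 544 and 522 at E8.5 (log2 change 1.36 ± 0.16, adjusted p = 7.7e-07). Their E8.5 arrays were all higher. Mycn (0.51) and Myc (-0.41) were not called.

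Of 23 tested genes of DNA methylation, chromatin and the Lin28 axis 3 fell and none rose, with a median of 0.13. Dnmt3l, the catalytically inactive partner of the de novo methyltransferases, had 1079.6, 978 and 1025 at E7.5 and 12.3, 4.63 and 9.97 at E8.5 (log2 change -4.92 ± 0.36, adjusted p = 1e-09). Dnmt3b, the de novo enzyme of the epiblast, had 10326, 12036 and 11815 at E7.5 and 2902, 4203 and 4401 at E8.5 (log2 change -1.58 ± 0.17, adjusted p = 3.7e-07). Neither showed overlap between the stages. Dnmt3a, the other de novo enzyme, was not called (0.13), and Cbx7 (-2.20), a Polycomb subunit, was the third to fall. A single rise appeared without E7.5 replicate 1, without E8.5 replicate 2 and without E8.5 replicate 3. Lin28a, the RNA-binding protein that blocks let-7 maturation, had 13578, 13347 and 14872 at E7.5 and 15195, 13799 and 14048 at E8.5 (log2 change 0.04 ± 0.20, adjusted p = 0.9), with overlapping arrays, and its mean was 5852 ± 94.9 (SD, n = 3) at E9.5 and 1006 ± 195 (SD, n = 3) at E10.5. Hmga2, a let-7 target, had 12686, 6913 and 7082 at E7.5 and 20811, 14128 and 15113 at E8.5 (log2 change 0.94 ± 0.18, adjusted p = 0.00032), just under the 2-fold minimum. On the mean over probe sets, the change was -1.60 for Cbx7.

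Imprinted genes changed in both directions, 4 up and 4 down of 21 tested, with a median of 0.41. Nnat, neuronatin, had 1134, 1150.3 and 1159 at E7.5 and 5732, 4765 and 5222 at E8.5 (log2 change 2.16 ± 0.07, adjusted p = 1e-14), Ndn, necdin, whose probe set can cross-hybridise, rose by 1.62, and Mest rose from 8762, 9049 and 9874 to 26813, 26599.8 and 25809 (log2 change 1.52 ± 0.10, adjusted p = 1.7e-10). Phlda2, which restrains placental growth, fell from 25814, 22525 and 22685 to 5742, 5520.4 and 5825 (log2 change -2.05 ± 0.14, adjusted p = 3.7e-10), and the trophoblast factor Ascl2 fell as above. The others that fell were Peg10 (-1.05), needed for the placenta, and the transporter gene Slc22a18 (-1.01). For Nnat, Mest and Phlda2 the stages did not overlap. Igf2 (0.58), the growth factor gene, and Cdkn1c (0.42) were not called. Without E8.5 replicate 3 the number of falls was 2. Leaving out E7.5 replicate 1 ended the call of Peg10 (-0.84). The calls of Peg10 (-0.81) and Slc22a18 (-0.84) ended without E8.5 replicate 3. Without E7.5 replicate 3, Slc22a18 (-0.77) no longer passed. Leaving out E8.5 replicate 1 ended the call of Slc22a18 (-0.84). In a fit of the 6 arrays alone, the call of Slc22a18 (-1.01) ended. In a fit of the first 12 arrays, the call of Slc22a18 (-1.01) ended.

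Epithelial adhesion genes and mesenchymal matrix genes went opposite ways. Of 24 tested epithelial genes 10 fell and none rose, with a median of -0.81, and of 29 tested genes of mesenchyme and matrix 22 rose and none fell, with a median of 1.45. Cdh1, E-cadherin, had 3696, 4761 and 5420.0 at E7.5 and 899.9, 1275 and 1332 at E8.5 (log2 change -1.96 ± 0.17, adjusted p = 2e-08), the opposite of Cdh2 above. Cldn7, a claudin of tight junctions, had 3959, 3321 and 3733 at E7.5 and 1308, 1045 and 1086 at E8.5 (log2 change -1.66 ± 0.11, adjusted p = 2.6e-10), and Dsg2, a desmosomal cadherin, fell by 1.57. Lum, lumican, a matrix proteoglycan, had 14.4, 45.7 and 20.4 at E7.5 and 909, 824 and 725 at E8.5 (log2 change 4.04 ± 0.16, adjusted p = 1.2e-13). Postn, periostin, had 58.8, 42.6 and 32.1 at E7.5 and 770.3, 897 and 725 at E8.5 (log2 change 3.56 ± 0.13, adjusted p = 1.9e-14), and Hapln1, which links hyaluronan to proteoglycans, 282, 388 and 232 at E7.5 and 2367, 2195 and 2241 at E8.5 (log2 change 2.84 ± 0.13, adjusted p = 6e-13). The stages were apart in each of these 5 genes with values on every array. The collagen gene Col5a2 (2.43), the fibrillin gene Fbn2 (2.02) and Zeb1 (2.04), a repressor of E-cadherin, rose. Vim (0.52), vimentin, and Fn1 (0.13), fibronectin, were not called, and Vim reached 16786 ± 434 (SD, n = 3) at E9.5. Visceral endoderm and trophoblast are epithelia too, and their part in the falls of this list was not tested.

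Immediate early and heat shock genes, which can respond to dissection, gave 1 rise and 4 falls among 16 tested, with a median of -0.19. Jun, a subunit of AP-1, had 183, 189 and 240.2 at E7.5 and 649, 612 and 438 at E8.5 (log2 change 1.35 ± 0.13, adjusted p = 4.5e-08), and Fos, its partner, 412, 652 and 432 at E7.5 and 188, 165 and 125 at E8.5 (log2 change -1.49 ± 0.20, adjusted p = 4.5e-06). Hspb1, a small heat shock protein, had 2735, 4309 and 3652 at E7.5 and 1101, 929 and 945 at E8.5 (log2 change -1.80 ± 0.16, adjusted p = 2.7e-08). The stages did not overlap in these genes, and the part of handling was not tested. The number of rises was 2 without E7.5 replicate 2, without E7.5 replicate 3 and without E8.5 replicate 1. Of 10 tested common reference genes 1 fell, Hprt, a purine salvage enzyme, from 6406, 6299 and 7384 to 3261, 3154 and 3185 (log2 change -1.06 ± 0.07, adjusted p = 6e-10). Actb (0.06), Tbp (-0.06) and Rplp0 (-0.02) differed by less than 0.1, but the changes of the list ran from -1.06 to 0.56. With no minimum fold, 3 of its members would have been called higher and 1 lower. With quantile normalization, the call of Hprt (-0.96) ended. The call of Hprt (-0.98) ended without E7.5 replicate 3.

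**Figure D5:**
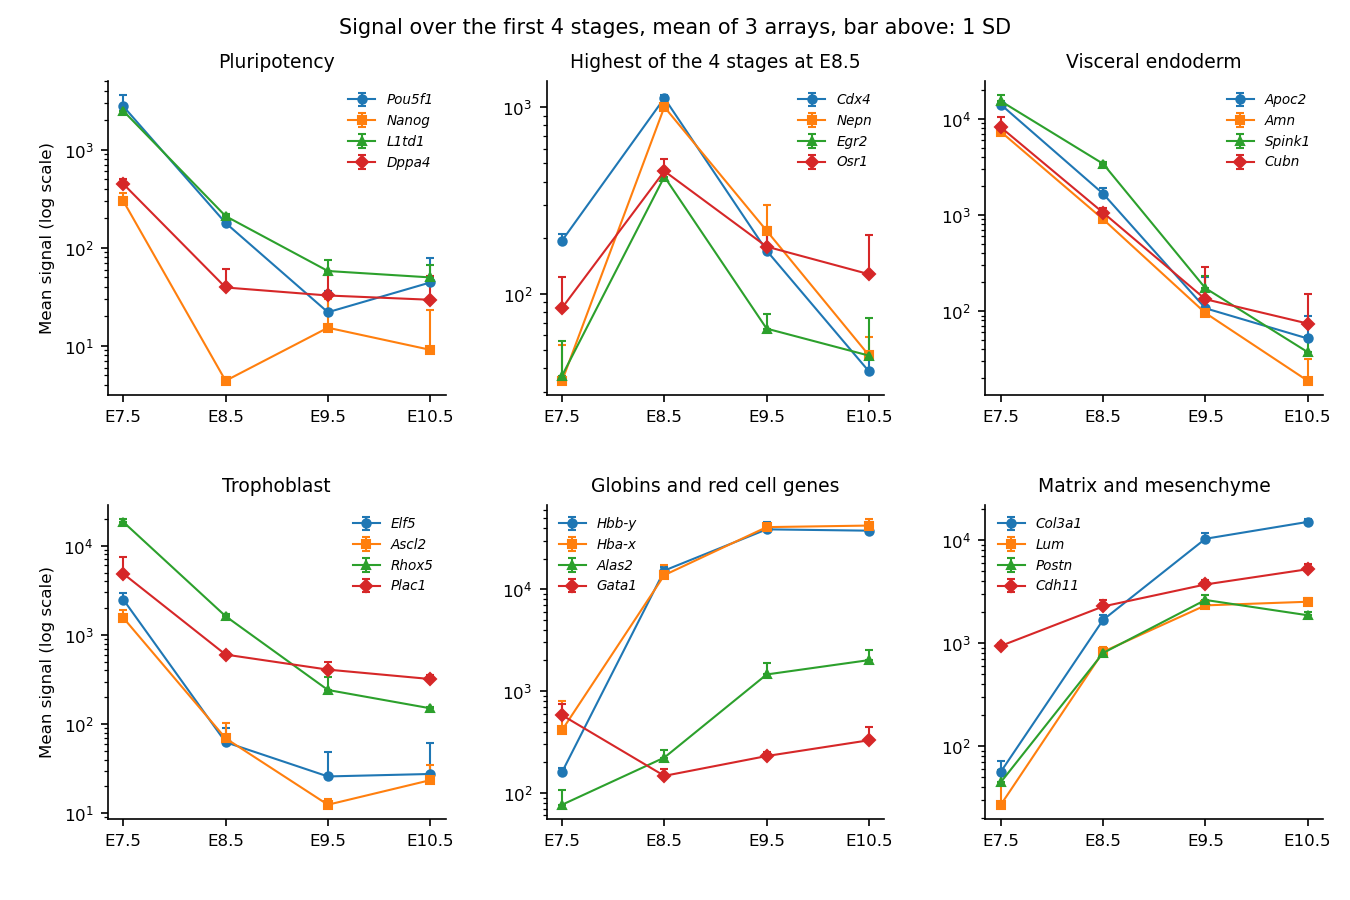
Mean MAS5 signal (log scale) of 3 arrays at each of the 4 stages from E7.5 to E10.5 for 6 groups of 4 genes, with a bar of 1 SD above each point. Cdx4, Nepn, Egr2 and Osr1 are highest at E8.5, with Nepn at 1004 there against 218 at E9.5, while the means of the visceral endoderm genes are lower at each later stage and Gata1 is lowest at E8.5.

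Followed into the next stages, the genes named above fell into a few courses, given here as levels only because the later comparisons share the E8.5 arrays. Pou5f1 had a mean of 179 at E8.5 and 22.0 ± 13.9 (SD, n = 3) at E9.5, and L1td1 210.3 and 58.0 ± 17.5 (SD, n = 3). Apoc2 went from 14042 through 1662 to 107 ± 117 (SD, n = 3), and Spink1 from 15239 through 3401 to 173 ± 60.6 (SD, n = 3). In these genes most of the E7.5 level was gone by E8.5 and more of it by E9.5. Actc1 was at 18902 at E8.5 and 15694 ± 774 (SD, n = 3) at E9.5, and Myl7 at 12372 and 8619 ± 407 (SD, n = 3), so neither was higher at E9.5. Col3a1, a fibrillar collagen gene, was at 56.1, 1672, 10236 ± 1482 (SD, n = 3) and 14924 ± 920.0 (SD, n = 3) over the 4 stages, and Lum at 26.9, 819, 2311 ± 133 (SD, n = 3) and 2506 ± 231 (SD, n = 3). These matrix genes were still far from their later level at E8.5. With the probe sets of each gene averaged in place of the brightest one, the change was 3.17 for Col3a1.

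Of the 15 largest falls, several belong to none of the lists. Tex19.1, a gene of germ cells and placenta, had 2086, 2847 and 2085 at E7.5 and 125, 104 and 77.2 at E8.5 (log2 change -4.21 ± 0.25, adjusted p = 5.2e-11). Mageb16, an X-linked gene of the MAGE family, had 2202, 2178 and 2103 at E7.5 and 55.0, 114 and 61.6 at E8.5 (log2 change -4.46 ± 0.32, adjusted p = 8.3e-10). Nr0b1, an orphan nuclear receptor of pluripotent cells, had 458, 327 and 477 at E7.5 and 4.61, 27.3 and 1.75 at E8.5 (log2 change -3.64 ± 0.35, adjusted p = 5.8e-08). Igfbp1, which binds insulin-like growth factors, had 899.6, 482 and 592 at E7.5 and 79.3, 8.87 and 9.39 at E8.5 (log2 change -3.71 ± 0.31, adjusted p = 8.9e-09). In all 4 no E8.5 array came near the E7.5 arrays. Sfmbt2, an imprinted Polycomb-type gene of trophoblast, fell by 3.92, and Pfpl, a perforin-like gene of the placenta, fell by 3.84. Among the largest rises Sh3bgr, a gene of heart and skeletal muscle, rose by 4.23, and Hoxb5os, a transcript antisense to Hoxb5, had 93.4, 151 and 150.4 at E7.5 and 16592, 11156 and 13259.8 at E8.5 (log2 change 6.45 ± 0.15, adjusted p = 7.2e-17), against a change of 0.70 for Hoxb5 itself. When all probe sets of a gene were averaged, the change was -2.06 for Pfpl, -2.78 for Sfmbt2 and 1.35 for Sh3bgr. Under quantile normalization, the change was 5.74 for Hoxb5os.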

How the data were processed

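The deposited values are MAS5 intensities, one per probe set and array, on a linear scale, made by the authors with MAS5 per the submitters' processing notes; the version is not given in the sources used here. Probe sets numbered 45101, of which 34945 had a single symbol in the platform annotation. Each of 18193 genes was represented by its probe set with the highest mean log2(signal + 25.9) over the 20 arrays, and 14044 exceeded the array median on at least 2 arrays. A model with a mean for each of the 8 stages was fitted to all 20 arrays with limma 3.58.1 in R 4.3.3 (empirical Bayes with an intensity trend), with Benjamini-Hochberg adjustment over all genes tested. On simulated data for 14044 genes, 94% of genes changed by a log2 value of 1.5 were called. The gene lists and members were chosen with earlier results of these data known. Genes were named from the 15 largest rises and falls whose stages did not overlap (leaving out uncharacterised loci and probe sets that can cross-hybridise, as for Hbb-y), the leading members of each list and up to 6 called members per list and direction. Apcdd1, Atp2a2, Casq2, Csrp3, Dlx1, Dppa4, Dppa5a, Esam, Fbn2, Gja1, Klf4, Ncam1, Neurog2, Nkd1, Nrarp, Pcdh12, Pim2, Pln, Rplp0, Sln, Tbp, Tek, Tnnc1, Zeb1, Zic2, the Smad genes, Hoxa11, the Hoxd genes past Hoxd10 and the genes under the brightness limit were picked after their values were seen. Alternatives of scaling, pseudocount, filter, probe set, arrays and replicates are given in the closing section.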

Additional observations from a re-analysis of the deposited data

How the results depend on the processing

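Against 881 rises and 693 falls, a pseudocount 4 times larger gave 426 and 426, one 4 times smaller 1142 and 799, the mean of a gene's probe sets 648 and 570, and no minimum fold gave 3027 and 2302. Quantile normalization gave 679 rises and 731 falls, scaling by the 75th percentile 821 and 801, and a filter at the 75th percentile 627 and 434. Leaving out each of the 6 arrays in turn gave 896 to 948 rises and 692 to 722 falls. The larger pseudocount shrinks the changes of dim genes and ended the calls of 60 of the 278 named genes that were called. Of these 278, 61 lost their call under at least 1 setting other than the pseudocounts, and no called change turned its sign. Genes that a filter removed were not counted as lost. Of 449 named genes, called or not, 354 remained under the filter at the 75th percentile and 438 under a filter on the 6 arrays. The replicate numbers were taken as names: deviations of arrays with the same number correlated at 0.162, 0.063 and 0.036, and not every array correlated best with its own number. With the replicate block 883 genes rose and 696 fell, and no named call changed. Each stage has 3 arrays of pooled embryos, which limits the precision, and signals near the floor carry no order.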
